A study of Mus musculus with 8 samples.

Results

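Expression of 8 genes that are best known from the stomach was followed across non-tumour small-intestinal mucosa and intestinal tumours of mice: Tff1, Tff2, Gkn1, Muc5ac, Muc6, Ctse, Lipf and Anxa10. All probe sets that the array's annotation assigns to 1 of these genes alone were taken. They came to 10 of the 45101 probe sets and covered 7 of the 8 genes, all 7 of which were among the 13119 genes tested. No such probe set was found for Muc6, which is therefore not analysed here. The genes were chosen by their tumour-against-mucosa values on these same arrays, so their rise in tumours is described and not tested.

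RNA was measured on 8 Affymetrix mouse arrays, 2 in each of 4 groups. All mice had a C57BL/6 background and an AIN-76 diet, carried the Apc (Min/+) mutation, which gives rise to intestinal tumours, and had both copies of Spint1 flanked by loxP sites. Spint1 encodes HAI-1, a membrane-bound inhibitor of serine proteases. The control groups kept HAI-1. The deficient groups also carried Vil-Cre, whose villin promoter directs deletion to the intestinal epithelium and leaves Spint1 intact in other cells. Each genotype gave non-tumour mucosa and tumours of the small intestine, and no age is given in the labels. The labels do not name the stretch of small intestine, nor whether the arrays of a group, or mucosa and tumour, came from different mice, so p-values measure only the spread between these samples.

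The stomach lining is covered by surface mucous cells that secrete the mucin MUC5AC together with the trefoil peptide TFF1 and the gastrokine GKN1, while the mucous cells of the gland neck secrete MUC6 and TFF2. Chief cells supply digestive enzymes, among them gastric lipase. The normal small intestine instead makes a MUC2 and TFF3 mucus in its goblet cells, and in the duodenum the Brunner's glands secrete MUC6 and TFF2. In bulk tissue of this kind, fewer cells of a type and less RNA per cell cannot be told apart.

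Signals are given on the log2 scale, on which a step of 1 is a doubling, and the signal of a probe set is set only against its own signal on other arrays. The fitted differences carry the standard error (SE) of the fit, with 2 arrays per group. Calls were made at an adjusted p under 0.05, adjusted over the 13119 tested genes. The filter value of 5.20, the 40th percentile of all probe sets, marks dim signals. Spint1, the deleted gene, stood at 12.87 and 13.00 in control mucosa, 12.46 and 12.25 in deficient mucosa, 12.75 and 13.06 in control tumours, and 11.76 and 11.84 in deficient tumours. It was lower without overlap in both tissues but not called (adjusted p = 0.271 in mucosa and 0.779 in tumours, limma), and whether its probe set lies in the deleted part is not given. One array stands apart in RNA quality: the ratio of the 3' to the 5' Gapdh control was 25.9 on control tumour array 2 and 0.803 to 1.77 on the other 7. The spike-in control signal was high (7.90 to 8.35) on 3 arrays, the second arrays of control mucosa, deficient mucosa and deficient tumours, and low (6.22 to 7.02) on the other 5.

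Some of the stomach genes sit in clusters of related genes, so each could be set beside its neighbours. Tff1 and Tff2 lie with Tff3 in 39.8 kb at chr17:31125306-31165060, Gkn1 lies with Gkn2 and Gkn3 in 43.3 kb at chr6:87345653-87388935, and Muc5ac lies with Muc6, Muc2 and Muc5b in 239.6 kb at chr7:141633459-141873089 (RefSeq positions, GRCm38.p6). Ctse is on chromosome 1, Anxa10 on chromosome 8 and Lipf on chromosome 19.

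Promoter sequences were found in RefSeq for 4 of the 8 genes. The 250 bases before the start are printed for Gkn1 and its neighbour Gkn3, which followed like patterns over the groups, for Anxa10, which had nearly the same pattern from another chromosome, and for Lipf, which was lower in control tumours. They are written 5′ to 3′ on the gene's own strand. Capitals mark matches, on either strand, to GATAA, the core letters bound by GATA factors, and to TGTTTNC, letters bound by forkhead factors. These 2 motifs do not overlap each other in these windows. TTTATN, letters bound by CDX factors, and TATAAA, the TATA box, were searched in the same way and are not capitalised. All 4 motifs were picked with the sequences in view.

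Gkn1 promoter, chr6:87350916-87351165, minus strand: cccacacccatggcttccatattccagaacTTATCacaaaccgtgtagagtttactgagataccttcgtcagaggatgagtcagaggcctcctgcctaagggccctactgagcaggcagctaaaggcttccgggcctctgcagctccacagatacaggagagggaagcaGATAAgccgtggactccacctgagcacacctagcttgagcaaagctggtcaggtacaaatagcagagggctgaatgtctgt
Gkn3 promoter, chr6:87388936-87389185, minus strand: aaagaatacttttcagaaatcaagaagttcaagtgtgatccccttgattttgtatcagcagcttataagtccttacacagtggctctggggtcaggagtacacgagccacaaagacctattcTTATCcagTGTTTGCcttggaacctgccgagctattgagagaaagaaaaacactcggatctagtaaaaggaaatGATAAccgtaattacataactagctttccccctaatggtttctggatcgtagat
Anxa10 promoter, chr8:62123194-62123443, minus strand: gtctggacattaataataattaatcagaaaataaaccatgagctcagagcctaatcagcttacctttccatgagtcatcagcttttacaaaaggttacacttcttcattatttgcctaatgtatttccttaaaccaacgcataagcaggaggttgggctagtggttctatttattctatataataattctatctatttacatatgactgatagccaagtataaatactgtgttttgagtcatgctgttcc
Lipf promoter, chr19:33960998-33961247, plus strand: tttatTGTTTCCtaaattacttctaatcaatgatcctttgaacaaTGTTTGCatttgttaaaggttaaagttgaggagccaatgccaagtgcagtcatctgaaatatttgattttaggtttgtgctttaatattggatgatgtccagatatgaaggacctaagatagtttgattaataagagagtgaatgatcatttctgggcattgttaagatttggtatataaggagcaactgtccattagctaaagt

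GATAA was found 2 times for Gkn1, at -220 and -81 from the start, and 2 times for Gkn3, at -128 and -54. TGTTTNC was found 1 time for Gkn3, at -120, and 2 times for Lipf, at -245 and -205. Neither set of letters is in the Anxa10 window, which holds TTTATN 3 times and TATAAA 1 time, with 1 overlap between them. TTTATN was found 1 time for Lipf, and the Gkn1 and Gkn3 windows hold neither of these. The promoter of Muc2, the neighbour of Muc5ac with a narrow span of signal, holds GATAA 4 times and TGTTTNC 1 time. Of 32817 promoters of this length, 22.6% hold GATAA, 17.8% TGTTTNC, 37.2% TTTATN and 12.4% TATAAA, so matches of this kind are common.

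In control mice, 5 of the 7 genes were far higher in tumours than in mucosa: Tff2, Ctse, Anxa10, Gkn1 and Tff1. Lipf was lower, and Muc5ac was dim in both tissues. These 5 passed the threshold upward, where 21.2% of all tested genes did, and Lipf passed it downward, where 7.64% did; since these values chose the genes, nothing is read from the counts. The median difference of the 7 genes was 3.91 beside 0.24 for all tested genes. In deficient mice, 4 of the 7 passed it upward (2.45% of all genes) and 0 downward (1.75% of all genes).

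**Figure D1:**
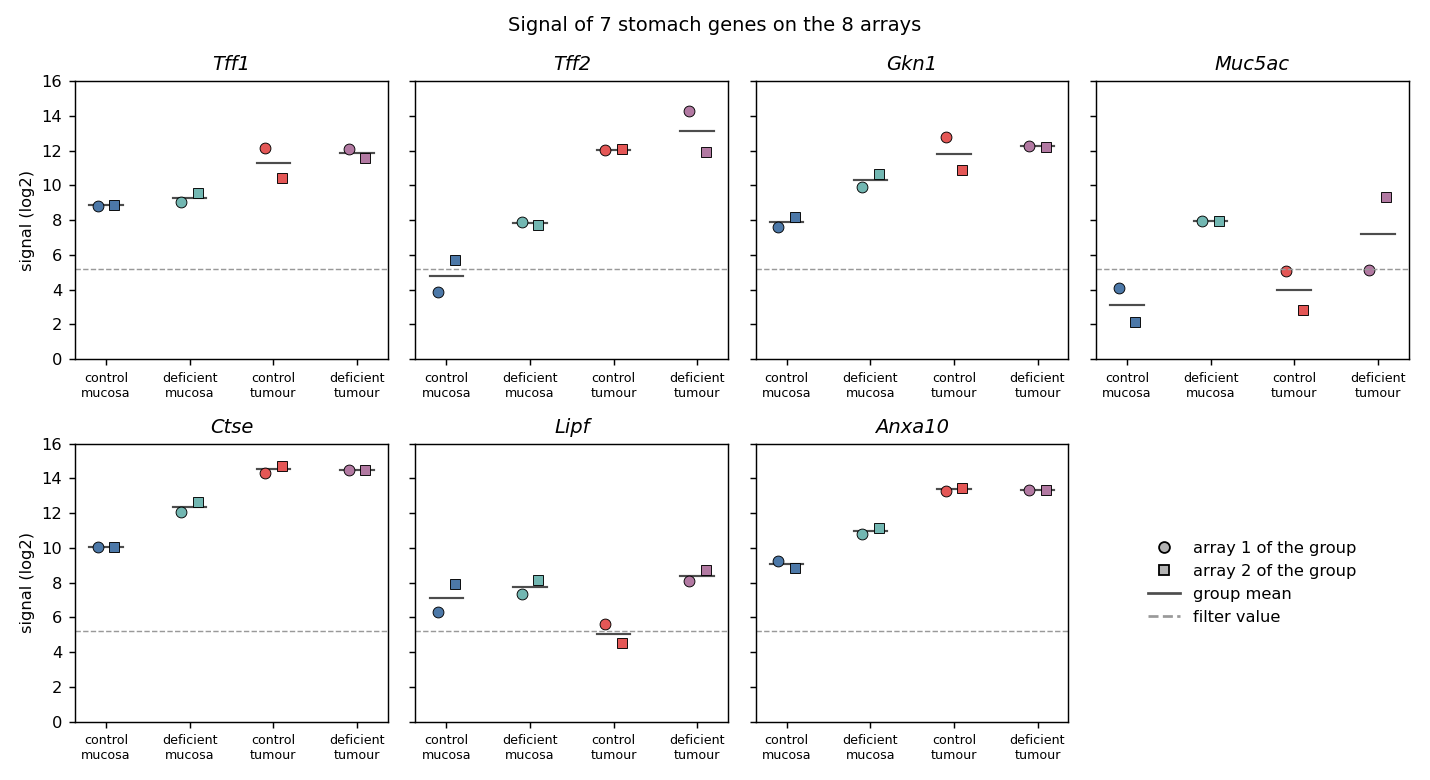
Signal (log2, vertical axis) of the probe set used for each of 7 stomach genes on the 8 arrays, by group. Circles and squares are the first and second array of a group, short lines are group means, and the dashed line is the filter value of 5.20. Ctse and Anxa10 step up from control mucosa to deficient mucosa to tumours with little spread, whereas Muc5ac and Lipf follow other patterns.

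Tff1, which encodes the trefoil peptide of gastric surface cells, stood at 8.80 and 8.88 in control mucosa and at 12.17 and 10.42 in control tumours. In deficient mice it stood at 9.02 and 9.53 in mucosa and at 12.10 and 11.57 in tumours. Every tumour array lay above every mucosa array, and the tumour groups overlapped each other. The tumour difference was 2.45 ± 0.54 (SE, 5.48-fold) in control mice and 2.56 ± 0.54 in deficient mice. In control mice it was 3.33 without control tumour array 2, the array with the high Gapdh ratio, and 1.58 without control tumour array 1.

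Tff2, the trefoil peptide of mucous neck cells and Brunner's glands, showed the widest span of the 7 genes. It stood at 3.85 and 5.71 in control mucosa, where 1 array lay under the filter value, and at 7.89 and 7.72 in deficient mucosa. Control tumours stood at 12.04 and 12.07, and deficient tumours at 14.29 and 11.90. The order was control mucosa, deficient mucosa, then both tumour groups, which overlapped. Tumours of control mice were at least 96.9-fold above mucosa, with the dim array raised to the filter value, and the difference in deficient mice was 5.29 ± 0.81. The fitted difference in control mice was 7.27 ± 0.81, and it was 6.35 and 8.20 without the first and second control mucosa array. In deficient mice it was 4.10 and 6.49 without the first and second tumour array.

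Gkn1, a secreted gastrokine of the gastric surface, was read by 2 probe sets. The brighter, used in the fit, has a name that ends in x_at, the array's mark for probes that may match unrelated sequences. It gave 7.60 and 8.18 in control mucosa and 9.88 and 10.68 in deficient mucosa. Tumours stood at 12.75 and 10.85 in control mice and at 12.26 and 12.23 in deficient mice. The groups rose in that order of tissue without overlap between mucosa and tumours, while the tumour groups overlapped. The second probe set gave 7.84 and 8.06, 9.78 and 9.96, 11.57 and 8.57, and 11.49 and 11.68 in the same groups. Its reading on control tumour array 2 fell below both deficient mucosa arrays, and its tumour difference in control mice was 2.13. The fitted tumour difference was 3.91 ± 0.59 (15.1-fold) in control mice and 1.96 ± 0.59 in deficient mice. In control mice it was 4.86 without control tumour array 2, the array with the high Gapdh ratio, 2.96 without control tumour array 1, and 3.02 with the mean of both probe sets.

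Ctse encodes cathepsin E, an aspartic protease of the endosomes that is abundant in gastric epithelium. Its brighter probe set stood at 10.05 and 10.07 in control mucosa and at 12.05 and 12.62 in deficient mucosa. Tumours stood at 14.30 and 14.74 in control mice and at 14.46 and 14.51 in deficient mice. The mucosa groups and the tumours formed 3 separate steps, with no order between the tumour groups. The tumour difference was 4.46 ± 0.29 (22.0-fold) in control mice and 2.15 ± 0.29 (4.43-fold) in deficient mice.

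A second Ctse probe set, whose name ends in s_at, the array's mark for probes that may match more than 1 transcript, did not follow the first. It read 7.54 and 8.06 in control mucosa, 8.28 and 7.85 in deficient mucosa, 6.08 and 5.65 in control tumours, and 8.75 and 5.51 in deficient tumours. It was thus lower, not higher, in control tumours. With the mean of both probe sets the control tumour difference of Ctse was 1.26.

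Anxa10 encodes annexin A10, a calcium- and lipid-binding protein of the gastric epithelium. Its brighter probe set gave 9.24 and 8.87 in control mucosa, 10.82 and 11.18 in deficient mucosa, 13.30 and 13.46 in control tumours, and 13.35 and 13.34 in deficient tumours. The same 3 steps were seen in its second probe set, at 5.27 and 4.98, 7.84 and 7.79, 9.78 and 10.04, and 9.94 and 10.02. Both probe sets of this gene thus placed control mucosa lowest, deficient mucosa next and the tumours highest. The tumour difference was 4.32 ± 0.26 (20.02-fold) in control mice and 2.35 ± 0.26 (5.09-fold) in deficient mice.

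**Figure D2:**
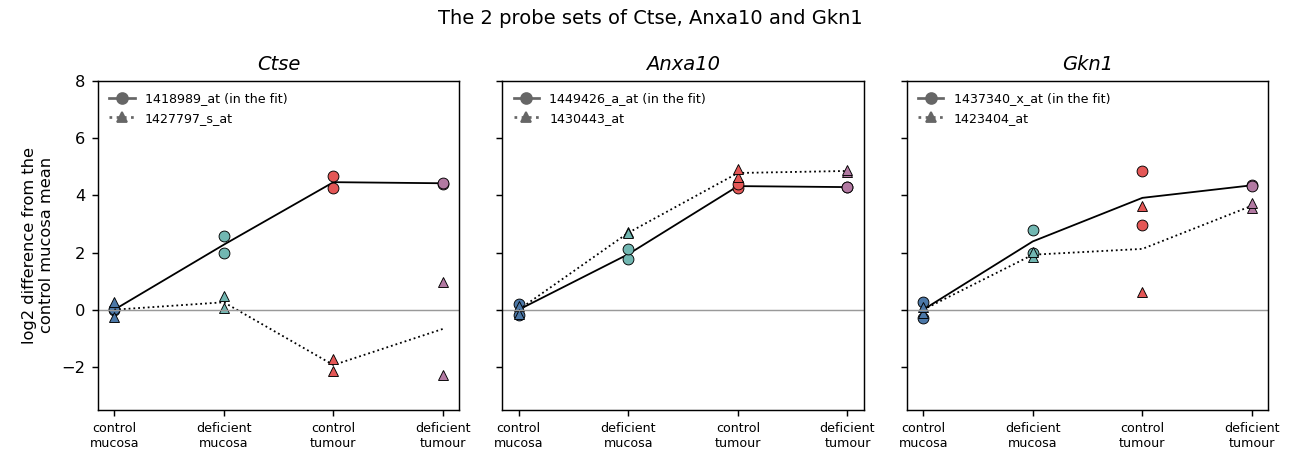
Difference (log2, vertical axis) of each array from the mean of the control mucosa arrays of the same probe set, for the 3 genes read by 2 probe sets. Circles and solid lines mark the probe set used in the fit, triangles and dotted lines the other, and lines join group means. The probe sets of Anxa10 run together, those of Gkn1 part on 1 control tumour array, and the second Ctse probe set is lower in control tumours, at 6.08 and 5.65, than in control mucosa.

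Lipf encodes gastric lipase, an acid-stable enzyme that starts fat digestion in the stomach. It stood at 6.30 and 7.95 in control mucosa and at 7.36 and 8.17 in deficient mucosa, which overlapped. Control tumours stood at 5.60 and 4.51, below every other array, and deficient tumours at 8.07 and 8.72. With the dim array raised to the filter value, control tumours were at least 3.31-fold lower than control mucosa. The fitted difference was -2.07 ± 0.62, and it was -2.90 without control mucosa array 1 and -1.24 without control mucosa array 2. In deficient mice the tumour difference was 0.64 ± 0.62, with overlap.

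Muc5ac, the gel-forming mucin of gastric surface cells, was dim in control mice. It stood at 4.09 and 2.12 in their mucosa and at 5.06 and 2.84 in their tumours, all under the filter value. Deficient mucosa stood at 7.97 on both arrays, and deficient tumours at 5.10 and 9.32. The tumour difference in deficient mice was -0.76 ± 1.35, and it was 1.35 without deficient tumour array 1 and -2.87 without array 2. Its direction there is thus decided by a single array. Only deficient arrays lifted the mean of Muc5ac over the filter value, so nothing is read from its tests for HAI-1 loss.

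HAI-1 loss in the non-tumour mucosa came with higher signal of Ctse and Anxa10. Ctse rose by 2.28 ± 0.29 (4.84-fold; adjusted p = 0.0348, limma) and Anxa10 by 1.94 ± 0.26 (3.84-fold; adjusted p = 0.0348). These were 2 of the 7 genes, where 0.899% of all tested genes were called higher, and the 7 were listed with this comparison already known. This comparison shares its control mucosa arrays with the tumour comparison that chose the genes. The median difference of the 7 was 2.28 beside 0.11 for all tested genes. Some genes of other kinds that rose in control tumours were also called higher in the same mucosa. Of 11 tested Wnt target and tumour genes, only Notum, a secreted Wnt inhibitor, was called (2.33 ± 0.31, adjusted p = 0.0348, limma), with a list median of 1.43. Of 6 tested genes of the regenerating epithelium, only Clu (2.33 ± 0.31, adjusted p = 0.0348, limma) and Anxa1 (1.80 ± 0.27, adjusted p = 0.0395) were called, with a median of 1.22. In control tumours 7 of the 11 and all 6 of these genes rose, beside 21.2% of all tested genes. Summed Wnt list signal was 2675 to 3279 in control mucosa and 5582 to 8562 in deficient mucosa, and summed regenerative list signal 7672 to 11408 and 25953 to 27985. Such sums weigh the brightest genes of a list most, such as Clu in deficient mucosa. The part of these in the stomach gene values was not tested.

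The other 5 genes were not called. Muc5ac differed by 4.87 ± 1.35 (at least 6.81-fold; adjusted p = 0.122) and Tff2 by 3.02 ± 0.81 (at least 5.09-fold; adjusted p = 0.115), and neither gene's mucosa groups overlapped. Gkn1 differed by 2.39 ± 0.59 (adjusted p = 0.0989), also without overlap. Tff1 differed by 0.43 ± 0.54 (adjusted p = 0.753) and Lipf by 0.64 ± 0.62 (adjusted p = 0.669). The mucosa groups of Lipf overlapped, and the gap of Tff1 was slight. Overlap was not counted over all tested genes, so nothing is read from these gaps. Muc5ac passed the filter only through deficient arrays, so nothing is read from its test either.

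The differences of Ctse and Anxa10 held their size under single omissions, but their calls did not hold. The adjusted p was 0.0659 to 0.151 when either array of control mucosa, deficient mucosa or control tumours was left out. It was 0.0611 for Ctse and 0.065 for Anxa10 with only the mucosa groups fitted, and 0.13 for both without the filter. With the mean of its probe sets Ctse differed by 1.27 (adjusted p = 0.243). Between the arrays of low and of high spike-in signal, taken apart, Ctse differed by 2.001 and 2.55, Anxa10 by 1.58 and 2.30, Gkn1 by 2.28 and 2.50, Tff2 by 4.04 and 2.01, and Muc5ac by 3.89 and 5.85.

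In tumours, HAI-1 loss left Ctse and Anxa10 within their spread. Ctse differed by -0.04 ± 0.29 and Anxa10 by -0.03 ± 0.26, with overlapping arrays. None of the 7 genes was called, and neither was any of the 13119 (0% called by limma), of which 802 had an unadjusted p under 0.05. Lipf differed by 3.34 ± 0.62 (at least 7.99-fold) and Muc5ac by 3.26 ± 1.35 (adjusted p = 0.779 for each, limma). The tumour groups did not overlap for Lipf, whereas for Muc5ac the nearest arrays, at 5.06 and 5.10, all but touched. Both of these lay under the filter value, so above it the Muc5ac difference rests on deficient tumour array 2, at 9.32. Among the arrays of low spike-in signal, 1 deficient against 2 control, Lipf differed by 3.02 and Muc5ac by 1.15. Tff2 differed by 1.04 ± 0.81, Tff1 by 0.54 ± 0.54 and Gkn1 by 0.44 ± 0.59, each with overlap.

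The interaction asks whether HAI-1 loss acted differently in tumours and in mucosa. No gene was called (0% of 13119 by limma, with 1211 at an unadjusted p under 0.05), and the smallest adjusted p was 0.180. Ctse gave -2.31 ± 0.41 and Anxa10 -1.98 ± 0.36 (adjusted p = 0.254 for each). Lipf gave 2.71 ± 0.87 (adjusted p = 0.432), the opposite sign, and Gkn1 gave -1.95 ± 0.84 (adjusted p = 0.539). A difference between the tissues in the response to HAI-1 loss was therefore not shown for any of these genes.

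**Figure D3:**
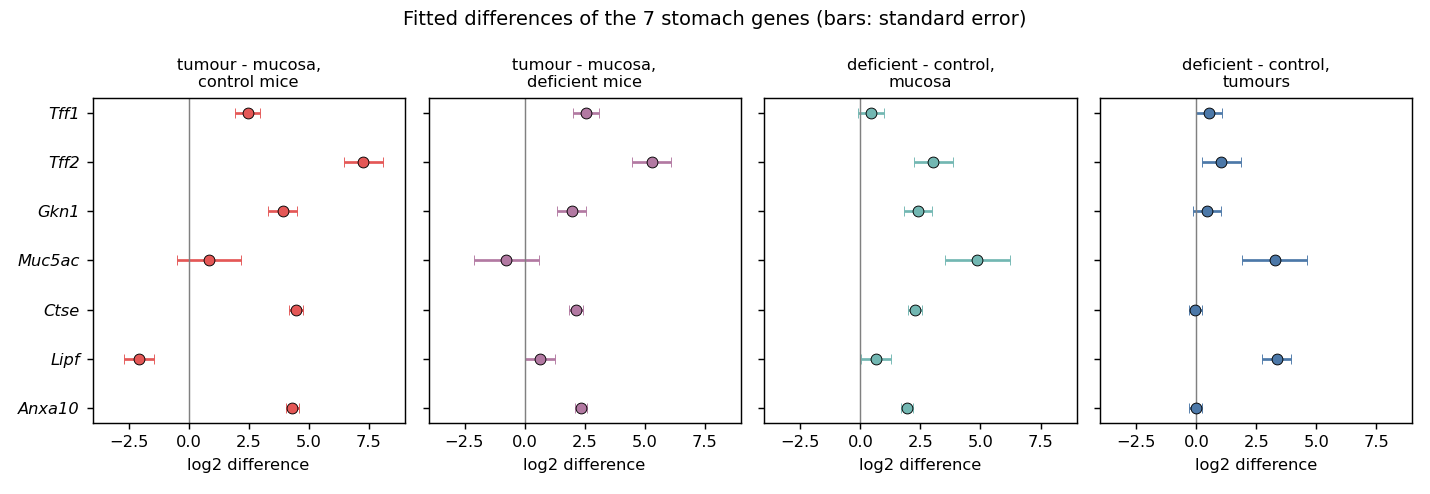
Fitted log2 difference (horizontal axis) of the 7 stomach genes in 4 comparisons, with bars of 1 standard error and 2 arrays per group. HAI-1 loss gave 2.28 for Ctse and 1.94 for Anxa10 in mucosa and about 0 in tumours (-0.04 and -0.03), while Lipf stands at -2.07 for tumours of control mice and at 3.34 for HAI-1 loss in tumours.

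The neighbours of these genes did not all move with them. Tff3, the trefoil peptide of intestinal goblet cells and neighbour of Tff2, stood between 14.38 and 14.87 on all 8 arrays and differed by 0.13 ± 0.25 in control tumours (adjusted p = 0.734). Muc2, the intestinal goblet cell mucin and neighbour of Muc5ac, stood between 13.80 and 14.62 and differed by 0.54 ± 0.24 (adjusted p = 0.127). Muc5b, a mucin of airways and glands, did not pass the filter and reached at most 5.48. The trefoil and mucin clusters thus held both genes with wide spans and genes with narrow ones. Tff3 and Muc2 were bright on all 8 arrays. Whether signals this bright still follow changes in RNA was not tested, so their narrow spans are not read as steady expression.

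The gastrokine neighbours were closer to Gkn1. Gkn3, a gastrokine of mucous neck cells, stood at 8.86 and 9.21 in control mucosa, 11.23 and 12.18 in deficient mucosa, 14.00 on both control tumour arrays, and 14.14 and 14.56 in deficient tumours. It rose by 4.97 ± 0.36 in control tumours (adjusted p = 0.000866), by 2.64 ± 0.36 in deficient tumours (adjusted p = 0.0281) and by 2.67 ± 0.36 with HAI-1 loss in mucosa (adjusted p = 0.0348). Gkn2, which is made with GKN1 in surface cells, differed by 2.45 ± 0.97 in control tumours and was not called (adjusted p = 0.0977), at 10.36 on the first control tumour array and 6.91 on the second.

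**Figure D4:**
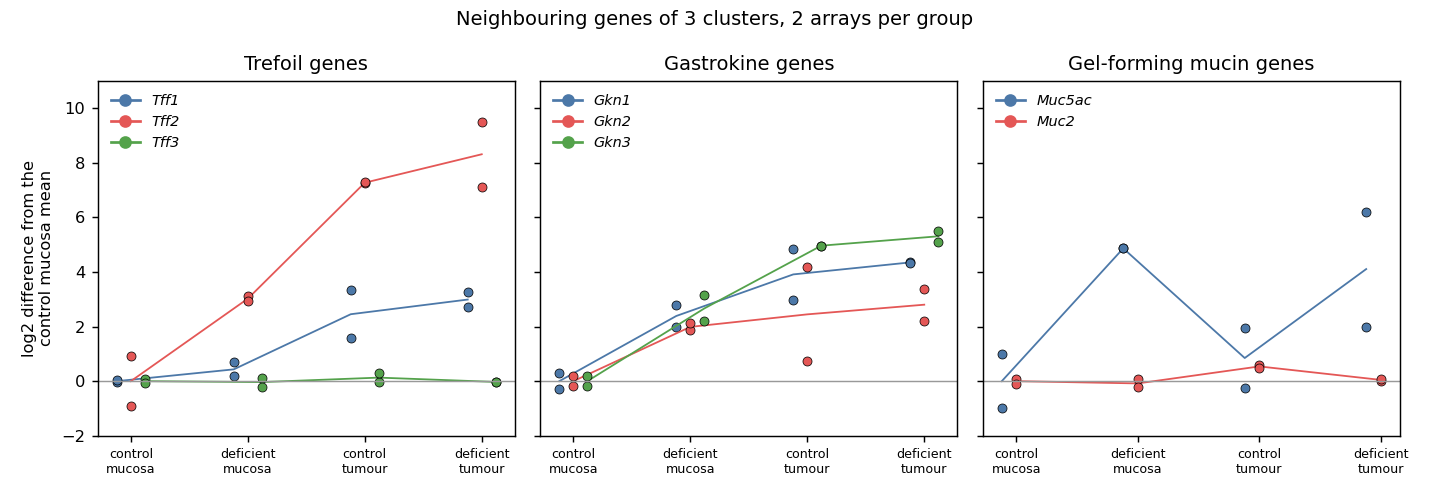
Difference (log2, vertical axis) of each array from the mean of the control mucosa arrays, for tested genes of the trefoil, gastrokine and gel-forming mucin clusters, with 2 arrays per group and lines through group means. Tff3 and Muc2, bright on all 8 arrays, stay near 0 in all groups. Tff1, Tff2 and the 3 gastrokines lie higher in tumours than in control mucosa. Gkn2 on control tumour array 2, at 6.91, lies below both deficient mucosa arrays, at 8.04 and 8.31.

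Other products of stomach cells formed a list of 29 genes, of which 27 had a probe set and 19 were tested. In control tumours 4 of the 19 rose and 2 fell, where 21.2% of all tested genes rose and 7.64% fell, so the share of rises was near that of all genes. The median difference was 0.70 beside 0.24 for all genes. Besides Gkn3, the rises were Aqp5, a water channel of gland cells (3.74 ± 0.59, adjusted p = 0.00486), Cldn18, the tight junction claudin of gastric epithelium (3.57 ± 0.46, at least 2.57-fold, adjusted p = 0.00268), and Dmbt1, a mucosal scavenger receptor protein (0.87 ± 0.27, adjusted p = 0.0473). The falls were the hormone gene Sst (-1.96 ± 0.43, adjusted p = 0.015) and Chga, of endocrine granules (-1.13 ± 0.35, adjusted p = 0.0451); both are also made by endocrine cells of the intestine. Cldn18 lay under the filter value in control mucosa and passed the filter only through the other groups, so nothing is read from its call. In deficient tumours 1 of 19 rose, Gkn3, and none fell (2.45% and 1.75% of all genes).

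With HAI-1 loss in mucosa 2 of these 19 genes rose, Gkn3 and Cldn18, where 0.899% of all tested genes did, and none fell. Cldn18 stood at 3.14 and 2.85 in control mucosa and at 6.51 and 6.78 in deficient mucosa, and rose by 3.65 ± 0.46 (at least 2.72-fold, adjusted p = 0.0348). Its control mucosa arrays lay under the filter value, so it passed the filter only through the other groups. Nothing is read from its call. None of the 19 was called with HAI-1 loss in tumours. The median of the list was 0.68 in mucosa beside 0.11 for all genes, and neither call remained when a control mucosa, deficient mucosa or control tumour array was left out.

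Products of acid-secreting and chief cells were mostly dim or not called. Atp4a, the catalytic subunit of the gastric proton pump, stood at 5.42 and 5.63 in control mucosa and at 8.23 and 8.34 in deficient mucosa, a difference of 2.76 ± 0.62 that was not called (adjusted p = 0.0809). Its partner subunit Atp4b differed by 0.18 ± 0.57 there (adjusted p = 0.914), so the pair did not move together. Pgc, a pepsinogen, and Cblif, gastric intrinsic factor, did not pass the filter and reached at most 6.80 and 6.25.

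Of 17 regulators linked to stomach and foregut identity, 13 were tested, and 6 rose and 1 fell in control tumours, beside 21.2% and 7.64% of all genes. The list is not particular to the stomach: Spdef was also listed for goblet cells, and Onecut2 and Gata4 for the proximal intestine. The rises were the forkhead genes Foxa1 (2.68 ± 0.24, adjusted p = 0.00118), Foxq1 (2.11 ± 0.43, adjusted p = 0.0109) and Foxa3 (1.57 ± 0.28, adjusted p = 0.00689), Spdef, a secretory cell regulator (2.25 ± 0.25, adjusted p = 0.00183), Sox21 (1.62 ± 0.37, adjusted p = 0.0165) and Onecut2 (1.56 ± 0.31, adjusted p = 0.0105). Klf4 fell (-0.92 ± 0.27, adjusted p = 0.0419). In deficient tumours 3 rose, Foxa1, Foxa3 and Spdef (2.45% of all genes), and with HAI-1 loss none was called in either tissue. Sox2, the foregut regulator, did not pass the filter and reached at most 4.35, and Barx1, Nkx6-2 and Nkx6-3 did not pass it either. Gata4 and Gata6 differed by 0.55 ± 0.49 and -0.96 ± 0.34 in control tumours without a call (adjusted p = 0.434 and 0.0725, limma).

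**Figure D5:**
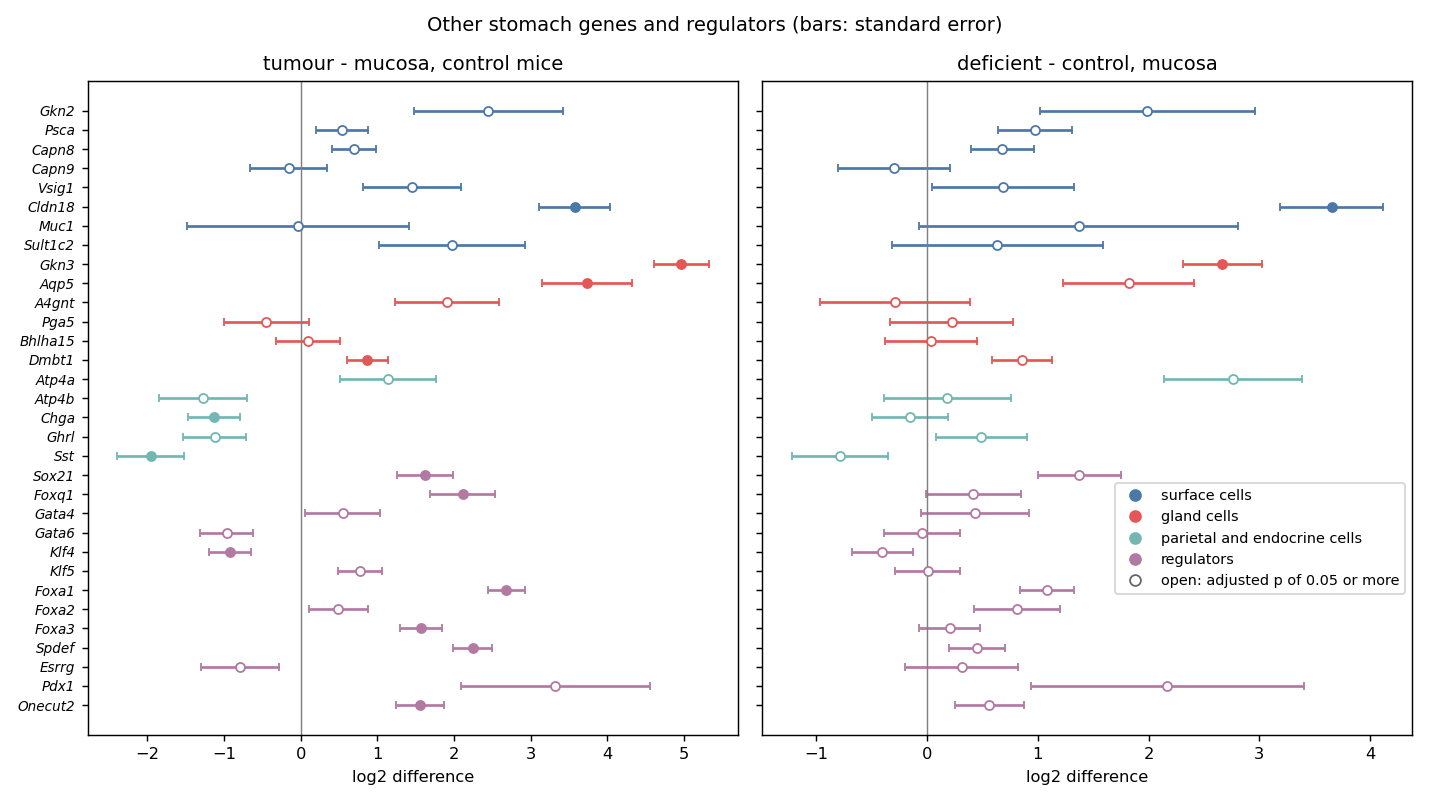
Fitted log2 difference (horizontal axis) with bars of 1 standard error for the tested genes of other stomach cell products and of regulators, in tumours against mucosa of control mice (left) and with HAI-1 loss in mucosa (right). Filled points were called at an adjusted p under 0.05. On the left, Gkn3 stands furthest to the right at 4.97 and 6 of the 13 regulators are called higher. On the right, Gkn3 and Cldn18 are called and no regulator is.

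Genes of intestinal identity mostly did not pass the test, with a median of -0.26 in control tumours beside 0.24 for all genes. Of 11 tested, 1 rose and 1 fell in control tumours, below the 21.2% and near the 7.64% of all genes, Gpa33 (0.95 ± 0.27, adjusted p = 0.035) and Hnf4g (-1.93 ± 0.37, adjusted p = 0.00916). The intestinal master regulators Cdx1 and Cdx2 differed by 0.26 ± 0.37 and -0.78 ± 0.28 and were not called (adjusted p = 0.64 and 0.0745). On the tumour arrays Cdx2 stood at 11.22 to 11.84. Genes of mature enterocytes went lower: of 9 tested, none rose and 5 fell in control tumours, with a median of -0.99. In deficient tumours none of the 9 rose and 4 fell (1.75% of all genes), with a median of -1.71 beside 0.18 for all genes.

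Markers of position along the intestine and of other cell types also differed between the same groups, and their counts in control tumours stand beside 21.2% of all genes higher and 7.64% lower. Of 7 tested genes of the proximal intestine, 3 rose and 1 fell in control tumours, and of 6 of the distal ileum none rose and 3 fell. Cybrd1, the duodenal iron reductase, stood at 5.44 and 5.48 in control mucosa and at 7.84 and 12.15 in control tumours. The higher of these tumour readings is on the array with the high Gapdh ratio. Lct, also listed for enterocytes, was the proximal gene that fell (-2.25 ± 0.61, adjusted p = 0.0294, limma). Cubn, an ileal vitamin receptor, fell by 4.23 on the log2 scale (SE 0.71, adjusted p = 0.00589, limma). Of the same ileal list, Fabp6 differed by 0.78 ± 0.57 without a call, and Slc10a2 did not pass the filter. In HAI-1 deficient mucosa none of the 7 or the 6 was called, with medians of 0.56 and -0.48.

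Of the Brunner's gland markers other than Tff2 and Muc6, 3 were tested, and Gkn3 and Wfdc2 rose in control tumours (Wfdc2 2.90 ± 0.72, adjusted p = 0.022), whereas Egf differed by -0.15 ± 0.38 (adjusted p = 0.802). Their summed signal, most of it from Gkn3, was 601 to 688 in control mucosa, 2595 to 4812 in deficient mucosa, 16738 to 17624 in control tumours and 20146 to 24874 in deficient tumours on the linear scale. In deficient mucosa Wfdc2 differed by 0.76 ± 0.72 (adjusted p = 0.661) and Egf by 0.59 ± 0.38 (adjusted p = 0.483), so of the 3 only Gkn3 was called there. All 7 tested smooth muscle markers rose in control tumours, with summed signal of 927 to 1067 in control mucosa and 7058 to 13288 in control tumours; in deficient mucosa it was 1684 to 2445, and none was called there. Of 4 liver genes Alb (at least 20.4-fold) and Ttr (3.70 ± 0.41, adjusted p = 0.00178) rose in control tumours, and of 5 pancreas genes Cela1 and Pnliprp1 did (2.48 ± 0.35 and 2.60 ± 0.78). Epithelial markers summed to 128256 to 136246 in control mucosa and 144832 to 156663 in control tumours. The part of region, glands or other cells in the stomach gene values was not tested.

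Over the 8 arrays, the genes whose centred profile lay nearest to each stomach gene were found by the root mean square difference. Ctse and Anxa10 lay 0.18 apart, nearer to each other than to any gene named for either. Nfe2l3, a transcription factor gene, came next, at 0.29 from Ctse and 0.33 from Anxa10. Gkn1 lay nearest to Maged1 at 0.37, and Tff1 to Syt16 at 0.30. Tff2 lay nearest to Tmem45a at 0.97, Lipf to Prss51 at 0.60 and Muc5ac to Sprr2f at 1.05, all wider gaps. The third gene nearest to Muc5ac was Atp4a, at 1.27.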

How the data were processed

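The deposited table gives 1 log2 signal per probe set and array. Per the submitters' processing notes MAS5 and RMA were used; no version or role is stated for either. The values are of the MAS5 kind: the linear mean, trimmed by 2% at either end, was 500.003 to 500.004 on each array, and each array had 313 to 762 values of 0. They were used as deposited, with no further scaling and no detection calls, so low signals carry large errors on this scale.

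Each gene was read by the brightest probe set (by mean) that lists it alone, and means under the 40th percentile (5.20 on the log2 scale, 36.8 linear) were removed, which left 13119 of 18194 genes. Group means were estimated jointly over the 8 arrays (limma 3.58.1, R 4.3.3), with 4 residual and 3.52 prior degrees of freedom, two-sided, with Benjamini-Hochberg adjustment within each comparison. The fit was tested on simulated data. "At least" folds raise arrays under the filter value to it. Summed signals add linear values, so the brightest probe sets of a list weigh most.

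The stomach genes and all gene lists were chosen with earlier results of these data known. Named were the stomach genes, called list members (up to 6 per list), a fixed set of neighbours and regulators, and the 3 nearest tested genes with a descriptive symbol per stomach gene. Klf4, Egf, Anxa2 and Ctsd were named outside this rule, after their values were seen. The number of arrays limits the precision. Alternatives were quantile normalization, other filters, a variance trend, the mean of probe sets, fitting the compared groups alone, a floor at 5, a replicate block, a spike-in term and leaving out each array. Positions and promoters are from RefSeq (GRCm38.p6).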

Additional observations from a re-analysis of the deposited data

How the results depend on the processing

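With 2 arrays per group, counts of called genes moved with most settings. HAI-1 loss in mucosa called 138 genes; the count was 47 after quantile normalization, 0 without the filter, 331 with a 60th percentile filter, 370 with a variance trend, 86 when probe sets were averaged, 46 with only the compared groups, 270 with a floor at 5, and 0 to 171 with 1 array left out. Tumour against mucosa called 3777 genes in control mice, 2464 without the filter and 1945 to 3767 with 1 array left out. In deficient mice it called 551, against 0 unfiltered, 959 when filtered at the 60th percentile, 972 with the trend, 0 with only the compared groups, 942 with the floor, and 0 to 346 with 1 array left out. Quantile normalization turned that split from 321 higher and 230 lower to 200 higher and 217 lower. HAI-1 loss in tumours and the interaction called 0 genes under every setting run. The cause was not tested.

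The labels do not say what the replicate numbers stand for, and deviations of same-numbered arrays correlated by -0.138 to 0.220, highest between the mucosa groups. All 4 first arrays had low spike-in signal and 3 of the 4 second arrays high signal, so the number and that signal partly go together. With the replicate block HAI-1 loss in mucosa called 84 genes and tumour against mucosa 3618 in control and 341 in deficient mice. Under it no stomach gene gained or lost a call for HAI-1 loss or for the interaction. The tumour differences of these genes moved by less than their SE, and their calls there were not compared. The crossed pairing, added after seeing the data, called 0 genes for HAI-1 loss in tumours.

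Among the stomach genes, Gkn1 was called for HAI-1 loss in mucosa with the trend (adjusted p = 0.0497). For HAI-1 loss in tumours Ctse turned to 0.0008 after quantile normalization and 0.6137 when its probe sets were averaged, and Anxa10 to 0.0686 and 0.0184. With 1 array left out, that comparison spanned -0.2586 to 0.1822 for Ctse, -0.1164 to 0.0468 for Anxa10, -0.3362 to 1.4112 for Tff1, -0.1505 to 2.2356 for Tff2 and -0.5097 to 1.3888 for Gkn1. Likewise Lipf spanned -0.1895 to 1.4658 for HAI-1 loss in mucosa, and the interaction spanned -0.7688 to 0.9787 for Tff1 and -3.7156 to 0.5002 for Muc5ac.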

Other observations

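Some relatives of the stomach genes by family were called in control tumours, where 21.2% of all tested genes rose and 7.64% fell. Of 10 tested annexin genes other than Anxa10, 6 rose and none fell, with a median difference of 2.05 beside 0.24 for all genes. Anxa8 differed by 4.38 ± 0.45 (adjusted p = 0.0014), Anxa1 by 3.31 ± 0.27 (adjusted p = 0.000867) and Anxa3 by 3.02 ± 0.31 (adjusted p = 0.00142), whereas Anxa2 differed by 0.10 ± 0.27 (adjusted p = 0.808). Anxa1 was the only one of the 10 called with HAI-1 loss in mucosa (1.80 ± 0.27, adjusted p = 0.0395). Of 5 tested aspartic proteases other than Ctse, Bace1 (3.45 ± 0.31, adjusted p = 0.00114) and Bace2 (2.28 ± 0.25, adjusted p = 0.00178) rose, and Ctsd, the lysosomal cathepsin D, differed by 0.22 ± 0.41 (adjusted p = 0.722).

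Of 17 tested genes that attach sugars to mucins, 4 rose and none fell in control tumours, a share near the 21.2% of all genes, and their median of 0.22 was just under the 0.24 of all genes. They were Fut2 (2.99 ± 0.36, adjusted p = 0.00217), Galnt3 (1.84 ± 0.25, adjusted p = 0.00305), Galnt12 (1.66 ± 0.29, adjusted p = 0.0064) and C1galt1 (1.28 ± 0.38, adjusted p = 0.0401). None of the 5 tested membrane mucin genes was called, and Tff3 and Muc2 were not. The limma tests adjust over all 13119 genes.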
